A study of Mus musculus with 2 samples.

Results

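Dopamine genes were followed through neuronal nuclei of the mouse hypothalamus. They were chosen by symbol, not by level, and are 7 of the 32285 genes counted. They encode the enzymes that make dopamine (Th and Ddc), the carriers that move it across the plasma membrane (Slc6a3) and into vesicles (Slc18a2), and 3 of its receptors (Drd1, Drd2 and Drd5). All nuclei came from wild-type male C57BL/6J mice aged 10 to 12 weeks, with no treatment named in the labels. The labelled tissue was the arcuate nucleus (ARC), and nuclei that stained for the neuronal protein NeuN were gated and captured in droplets with a 10x kit. They gave 1 library of transcripts, with no map from nuclei to mice, which is 1 sample, so no difference below has a replicate check and no p-value is given. Antibody tags (hashtags) on the nuclear pores carried the names ARC and PVH in the count matrix, whereas the sample labels named only ARC tissue. Hashtag counts put 3767 nuclei in ARC and 3074 in PVH, called 944 doublets and left 2385 without a tag, of 10170 nuclei that passed the quality filters. Of the 6841 nuclei with 1 tag, 6812 were neuronal (3750 ARC and 3062 PVH), with a median of 4828 unique molecular identifiers (UMIs, counts of single captured transcripts) in ARC and 5039 in PVH. The remaining 29 formed 1 cluster with oligodendrocyte markers. Against known markers, 767 of 778 nuclei of an AGRP-like cluster (Agrp and Npy) were ARC, while the ARC share of the 4 PVH-like clusters (Sim1 and Otp) ran from 2.99% to 28.3%. Of 261 VMH-like nuclei, 67 were PVH.

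Tyrosine hydroxylase (Th) makes L-DOPA from tyrosine, and aromatic L-amino acid decarboxylase (Ddc) turns L-DOPA into dopamine. The vesicular monoamine transporter Slc18a2 loads dopamine into vesicles, and the dopamine transporter Slc6a3 takes it back up after release. A neuron with all 4 genes can make, store, release and retrieve dopamine. In the arcuate nucleus, tuberoinfundibular dopamine neurons are known for restraining prolactin release from the pituitary. Other hypothalamic neurons are known to carry Th without the rest of the set. Drd1 and Drd5 encode D1-like receptors that raise cyclic AMP, and Drd2 encodes a D2-like receptor that lowers it and is often an autoreceptor on dopamine neurons.

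The bases upstream of Th, Ddc, Slc6a3 and Slc18a2 are shown because these genes were at their highest together in 1 small group of neurons described below. Each run holds the 250 bases before a RefSeq transcription start on GRCm38.p6, 5′ to 3′ on the gene's strand. All 7 members matched an entry, Ddc and Drd1 with 2 starts each. Capitals mark matches, on either strand, to TGACGTCA (the cyclic AMP response element) and AAAGGTCA (a site bound by NR4A receptors). The GC box GGGCGGG was also marked. The TATA box was searched as TATAAA. The Th run is chr7:142899996-142900245 on the minus strand, within the span of the GENCODE gene.
Th: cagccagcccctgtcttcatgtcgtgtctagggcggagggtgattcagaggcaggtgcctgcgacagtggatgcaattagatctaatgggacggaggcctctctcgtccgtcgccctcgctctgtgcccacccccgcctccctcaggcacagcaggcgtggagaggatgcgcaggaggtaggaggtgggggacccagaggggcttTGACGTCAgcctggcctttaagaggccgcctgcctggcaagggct
The Ddc run is chr11:11898145-11898394 on the minus strand, before the outer of its starts.
Ddc: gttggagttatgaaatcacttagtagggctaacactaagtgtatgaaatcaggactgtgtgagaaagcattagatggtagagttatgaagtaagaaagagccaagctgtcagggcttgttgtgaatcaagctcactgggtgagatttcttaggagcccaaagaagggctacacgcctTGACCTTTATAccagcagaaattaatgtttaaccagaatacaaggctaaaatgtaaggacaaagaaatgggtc
The Slc6a3 run is chr13:73536497-73536746 on the plus strand.
Slc6a3: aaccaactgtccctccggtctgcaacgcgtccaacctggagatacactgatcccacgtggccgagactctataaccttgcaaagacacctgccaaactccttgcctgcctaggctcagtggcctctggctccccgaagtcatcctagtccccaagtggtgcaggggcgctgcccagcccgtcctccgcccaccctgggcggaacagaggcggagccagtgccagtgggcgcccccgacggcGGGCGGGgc
The Slc18a2 run is chr19:59260628-59260877 on the plus strand, inside the antisense gene Gm29261.
Slc18a2: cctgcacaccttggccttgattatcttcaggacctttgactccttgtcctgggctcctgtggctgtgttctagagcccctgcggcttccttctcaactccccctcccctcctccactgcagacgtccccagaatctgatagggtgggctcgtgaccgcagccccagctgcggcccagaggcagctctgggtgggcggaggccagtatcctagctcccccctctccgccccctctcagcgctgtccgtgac
The response element stood 45 to 38 bases before the Th start, a match found before 1.55% of the 32851 starts in the table. AAAGGTCA and TATAAA overlapped before the outer Ddc start, on the opposite strand, and were found before 1.34% and 12.4% of starts. A GC box lay 9 to 3 bases before the Slc6a3 start and also before Drd2, Drd5 and 1 Drd1 start, as before 23.4% of starts. The Slc18a2 run held none of these letters, and no motif was shared by all 4 genes. These matches are a description of the sequence and were not tied to any measurement here.

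In the GENCODE M21 annotation of GRCm38, Th lay at chr7:142892752-142931128 and Slc6a3 at chr13:73536747-73578672, with no other gene over either. Ddc lay at chr11:11814101-11898144 and overlapped 1700042O10Rik on the other strand. Slc18a2 (chr19:59260896-59296012) overlapped Gm29261 and Drd5 (chr5:38319367-38322518) overlapped Gm26560, each on the other strand. The sources used here do not say whether counting used strand, so reads of such pairs may not be told apart. Drd1 (chr13:54051183-54055705) and Drd2 (chr9:49340627-49408177) overlapped no gene.

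Each of the 7 genes was sparse. Among the 6812 neurons, Ddc had 1501 UMIs in 1080 nuclei, Slc18a2 had 947 in 775 and Th had 325 in 269. Drd2 had 257 UMIs in 217 nuclei, Slc6a3 had 87 in 70, Drd1 had 60 in 57 and Drd5 had 9 in 9. A single UMI was all that 228 of the 269 Th nuclei held, and the richest held 7. A nucleus without a UMI was therefore not shown to lack the gene, and levels are given per group as UMIs per 1e+06 UMIs of the group (CPM). Exact Poisson intervals at 95% follow CPM values and exact binomial (Clopper-Pearson) ones follow shares and ratios. All cover counting error only.

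The hashtag comparison asked where the genes were read more, in nuclei tagged ARC or PVH. Slc6a3 stood apart, at 3.97 CPM (3.13 to 4.96, 77 UMIs) in ARC neurons and 0.601 CPM (0.288 to 1.10, 10 UMIs) in PVH neurons. That is a 6.60-fold higher level in ARC (3.40 to 14.3). Slc6a3 was the only member past 2-fold with at least 50 UMIs, where 1.81% of 15814 genes were at least 2-fold lower in PVH and 2.28% at least 2-fold higher. The enzymes and the vesicular carrier were more even. Th was at 10.2 CPM (8.83 to 11.7) in ARC and 7.63 CPM (6.36 to 9.08) in PVH. Ddc was at 45.6 CPM (42.7 to 48.7) and 36.9 CPM (34.1 to 40.0), and Slc18a2 at 29.8 CPM (27.4 to 32.3) and 22.2 CPM (19.96 to 24.5). Their log2 ratios, PVH over ARC, were -0.42 (-0.75 to -0.09) for Th, -0.30 (-0.46 to -0.15) for Ddc and -0.43 (-0.62 to -0.23) for Slc18a2. The median over all genes compared was -0.05. The receptors could not be separated between the hashtags at this depth. Drd2 was at 7.83 CPM in ARC and 6.31 CPM in PVH (log2 ratio -0.31, -0.68 to 0.06) and Drd1 at 1.75 and 1.56 CPM (log2 ratio -0.17, -0.96 to 0.61). Drd5 had 6 UMIs in ARC and 3 in PVH and was under the 50-UMI minimum. Summed astrocyte markers were at 33.7 CPM in ARC and 42.04 CPM in PVH with all 5 markers present, and oligodendrocyte markers at 67.3 and 55.6 CPM. Their part in these ratios was not tested.

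Other genes of the pathway were read the same way. Of 5 tetrahydrobiopterin genes compared, which make the cofactor of Th, 1 (Gch1) was at least 2-fold lower in PVH, at 3.72 against 10.97 CPM, and 0 were higher. None of 5 breakdown genes or 4 other monoamine genes was past 2-fold. Of 10 genes of other dopamine receptors and signalling, Drd3, a further D2-like receptor, was higher in PVH, at 4.68 against 1.91 CPM. Among transcription factors of dopamine neurons, Lmx1a, Meis2, Pax6, Onecut2 and Onecut3 were at least 2-fold higher in PVH and Isl1 was lower, at 44.3 against 134 CPM.

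**Figure D1:**
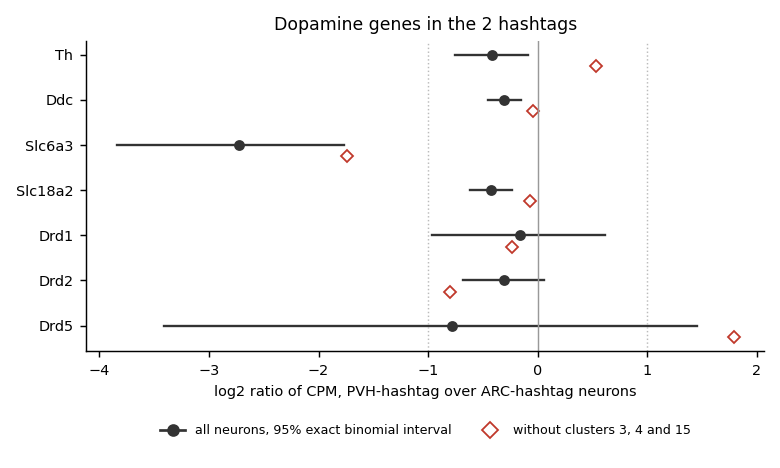
Log2 ratio of CPM in PVH-hashtag over ARC-hashtag neurons for the 7 genes (filled points, with lines for the 95% exact binomial interval), and the same ratio without clusters 3, 4 and 15 (open diamonds). Dotted lines mark 2-fold. Slc6a3 lies at -2.72, whereas the Th ratio moves from -0.42 to 0.53 once these clusters, the 3 with the highest Th levels, are left out.

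The Th ratio changed with 3 clusters. Clustering of both hashtags together, with the 7 members left out of the variable genes, gave 20 neuron clusters, of which 10 could be named from marker lists. Clusters 3, 4 and 15 had the highest Th levels. Without them, Th had 54 ARC UMIs and 68 PVH UMIs and the log2 ratio turned to 0.53, given without an interval. This setting was added after the values were seen. The clusters were picked by their Th, so a shift of the Th ratio was partly built in. The ratios of Ddc and Slc18a2 came to -0.05 and -0.07 there, and that of Slc6a3 to -1.74. Within cluster 4 all 4 synthesis and transport genes were higher in ARC nuclei, by 5.46-fold (2.65 to 13.1) for Th and 9.36-fold (3.04 to 46.8) for Slc6a3. Ddc was 2.74-fold (2.01 to 3.81) and Slc18a2 2.41-fold (1.73 to 3.42) higher. Within cluster 3 the order of Th was the opposite, at 10.1 CPM (5.22 to 17.6) in ARC and 21.3 CPM (15.8 to 28.2) in PVH nuclei. Drd2 in cluster 3 was also higher in PVH nuclei, at 11.3 CPM (26 UMIs) against 2.52 CPM (3 UMIs). Both clusters held parts of unlike hashtag make-up, described below. Part 4d of cluster 4 had 90 of 93 nuclei ARC, and part 3b of cluster 3 had 149 of 162 PVH. These ratios therefore do not compare 1 kind of neuron between the hashtags.

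Across clusters, each synthesis or transport gene had its own order. Th was highest in cluster 15 at 45.8 CPM (34.0 to 60.3) and next in cluster 4 at 36.6 CPM (29.5 to 44.9), and these intervals overlap. Under resolutions 0.8 and 1.2 and with 50 components, the top was instead a small cluster led by Has2, at 124.5 to 126 CPM. Cluster 15 held 207 nuclei, 204 of them ARC, and was GHRH-like from Ghrh, Gal and Chat. Clusters 3 (17.5 CPM), 19 (17.3 CPM) and 8 (14.3 CPM) followed, and the median cluster had 3.97 CPM. Cluster 19 was PVH-like and held Oxt, the gene of oxytocin. Cluster 8 stayed unnamed, since 3 or more markers each of astrocytes, oligodendrocyte precursors and pituitary cells were raised in it. Its astrocyte markers summed to 220 CPM, against 37.6 CPM over all neurons, with all 5 present. Without it the Th ratio between the hashtags was -0.49. Of the 19 neighbouring pairs in the Th order, 18 had overlapping intervals.

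Ddc was highest in cluster 4 at 119.9 CPM (107 to 134), above cluster 3 at 83.2 CPM, cluster 17 at 80.4 CPM and cluster 15 at 76.0 CPM. Every neuron cluster had Ddc UMIs, the lowest being the PVH-like cluster 18 at 4.12 CPM. Slc18a2 was likewise found in all clusters, from 10.4 CPM in cluster 19 to 98.8 CPM (86.8 to 112) in cluster 4, with the POMC-like cluster 10 next at 37.6 CPM. Slc6a3 was the most restricted of the 4. Cluster 4 held 57 of its 87 neuron UMIs (65.5%) at 22.7 CPM (17.2 to 29.4), 25.4-fold (16.0 to 40.9) above the other neurons. No other cluster passed 3.596 CPM, and clusters 13, 15, 18 and 19 had none.

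Cluster 4 (507 nuclei, 321 ARC) and cluster 3 (664 nuclei, 228 ARC) met no name and were led by 9130024F11Rik, Cgnl1 and Has2 and by Lhx8, Lef1 and Gm12130. For reference, the AGRP-like cluster 1 was used, whose neurons are known for peptides and not for dopamine. Th was found there in 11 of 778 nuclei (1.41%, 0.708 to 2.52; median depth 5027.5 UMIs) and Slc6a3 in 2 (0.257%, 0.0311 to 0.926). Ddc was found in 9.25% (19.6 CPM, 15.6 to 24.3) and Slc18a2 in 7.33% (15.4 CPM, 11.9 to 19.6). The Slc18a2 level of cluster 15 (19.2 CPM) lies within that interval. A single UMI of Th, Ddc or Slc18a2 in a nucleus may be background. Ddc was lower still in the PVH-like cluster 18, at 4.12 CPM (0.850 to 12.0). Cluster 1 is therefore not a floor for Ddc, and background RNA was not measured. In cluster 15 the Th share was 21.7% (16.3 to 28.0; median depth 4891 UMIs) and in cluster 4 13.2% (10.4 to 16.5; median depth 4665 UMIs).

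**Figure D2:**
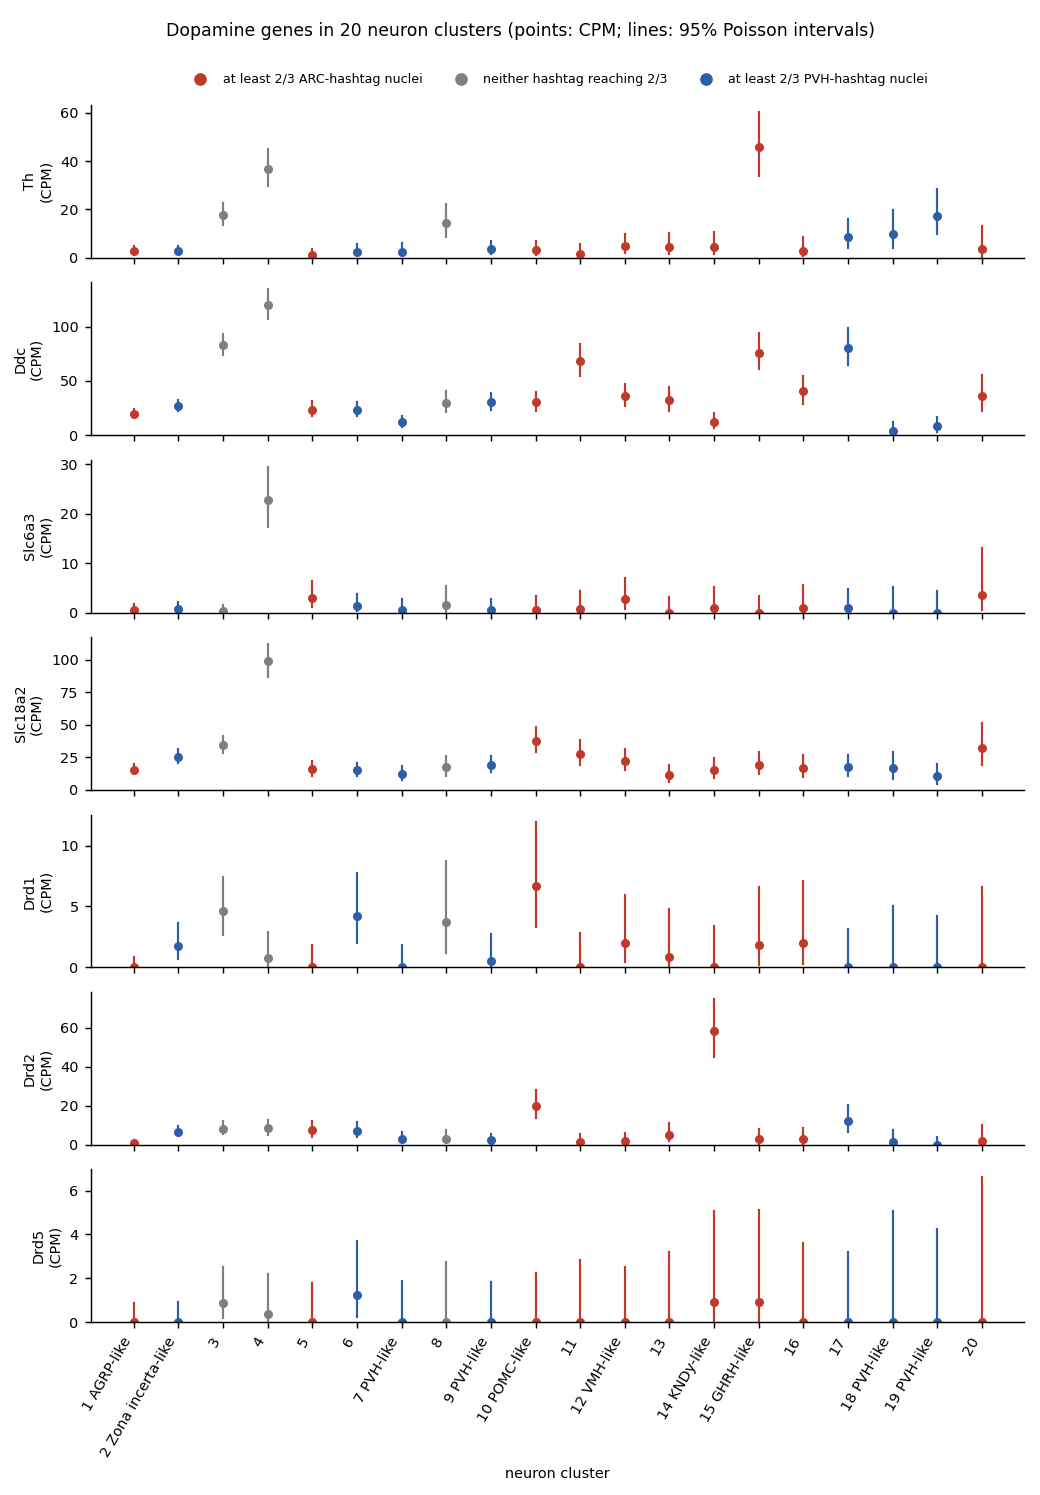
CPM of each gene (points) with 95% Poisson intervals (lines) in the 20 neuron clusters, colored by the hashtag that made up at least 2/3 of the nuclei. Slc6a3 and Slc18a2 peak in cluster 4 at 22.7 and 98.8 CPM, Th peaks in clusters 15 and 4, and Drd2 peaks in the KNDy-like cluster 14 at 58.3 CPM.

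Division of clusters 3, 4 and 15 was added after these levels were seen. Cluster 15 did not divide, cluster 4 gave 4 parts (4a to 4d) and cluster 3 gave 6 (3a to 3f). These 3 clusters were divided for their Th and part 4d was singled out for its Slc6a3, so its levels of both genes are a description. It held 93 nuclei, 90 of them ARC, and was led by Has2, Gm42557 and Rxfp2. Slc6a3 had 50 UMIs there (97.2 CPM, 72.2 to 128), which is 57.5% of all neuron UMIs of the gene. The other 3 genes were also at their highest of all parts and undivided clusters. Th had 62 UMIs (121 CPM, 92.4 to 155), Ddc 151 (294 CPM, 249 to 344) and Slc18a2 100 (194 CPM, 158 to 236). Against all other neurons these were 16.3-fold (12.2 to 21.6), 7.73-fold (6.49 to 9.15) and 8.16-fold (6.57 to 10.1) higher. Over all 14077 genes compared, 4.16% were at least 2-fold higher and 11.4% at least 2-fold lower in 4d. Ddc and Slc18a2, which were not used in these choices, were both past 2-fold.

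The other parts of cluster 4 held less of the set. Part 4a (173 nuclei) kept Slc18a2 at 100.4 CPM (80.7 to 124), with Th at 19.2 CPM, Ddc at 58.7 CPM and Slc6a3 at 3.39 CPM from 3 UMIs. Part 4b (133 nuclei) kept Ddc at 119 CPM (93.4 to 149), with Th at 17.4 CPM and Slc6a3 at 6.33 CPM from 4 UMIs. In 4c, 92 of 108 nuclei were PVH, Th had 2 UMIs and Slc6a3 none. A finer clustering of all nuclei (resolution 0.8) gave, without this division, a cluster of 97 nuclei that held 90 of its 93. Th was at 126 CPM and Slc6a3 at 96.3 CPM in that cluster.

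Cluster 15 and part 3b, both taken up for their Th, had no Slc6a3 UMI. Parts 3a, 3c, 3e, 3f and 4c had none either. The Th levels of cluster 15 and 3b were above those of 4a (11.2 to 30.7) and 4b (8.69 to 31.2), but the interval of 3b overlapped both. Cluster 15 had 50 Th UMIs and 83 Ddc UMIs (76.0 CPM, 60.5 to 94.2) but 0 Slc6a3 UMIs, which allows up to 2.75 CPM. Its Slc18a2 was at 19.2 CPM (11.9 to 29.4), against 26.5 CPM in the other neurons. Of 3 genes of other monoamine synthesis and transport compared, Slc18a1 and Slc22a3 were at least 2-fold higher in cluster 15 and 0 were lower. In 4d, 0 of these 3 were higher and Slc18a1 was at least 2-fold lower. Th, for which cluster 15 was taken up, was 5.82-fold (4.22 to 7.89) above the other neurons, and 2.78% of genes were at least 2-fold higher and 9.09% at least 2-fold lower there. Ddc was 1.87-fold higher (1.48 to 2.34). Drd2 was 2.64-fold lower on 3 UMIs, with an interval that includes 1. Part 4d exceeded cluster 15 by 2.63-fold (1.79 to 3.90) in Th, 3.86-fold (2.94 to 5.11) in Ddc and 10.1-fold (6.27 to 17.1) in Slc18a2. Slc6a3 was 35.4-fold higher in 4d when a floor of 3 UMIs was taken for cluster 15, and the exact interval of the ratio began at 27.7. In that comparison 4.07% of 6361 genes were at least 2-fold higher and 7.28% at least 2-fold lower, and nothing is read from Th and Slc6a3, which chose the groups.

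The second Th-rich group without an Slc6a3 UMI was part 3b, with 162 nuclei, 149 of them PVH, led by Atp8b1, Acss3 and Lef1. It was picked for its Th level, which was 37.1 CPM (25.2 to 52.6) from 31 UMIs. Ddc was at 47.8 CPM (34.2 to 65.2) and Slc18a2 at 25.1 CPM (15.5 to 38.4). Their ratios to the other neurons were 1.15 (0.82 to 1.58) and 0.96 (0.59 to 1.47), so both intervals include 1. No UMI of Slc6a3 was found, which allows up to 3.59 CPM and so does not set 3b below 4a at 3.39 CPM. Here 2.53% of genes were at least 2-fold higher and 6.35% at least 2-fold lower. Of the members compared other than Th (Ddc, Slc18a2 and Drd2), 0 were past 2-fold. The oxytocin cluster 19 was poorer still in the later steps. It had 15 Th UMIs (17.3 CPM, 9.66 to 28.5), Ddc at 8.06 CPM (3.24 to 16.6) and 0 Slc6a3 UMIs, at the deepest median of 7088 UMIs.

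**Figure D3:**
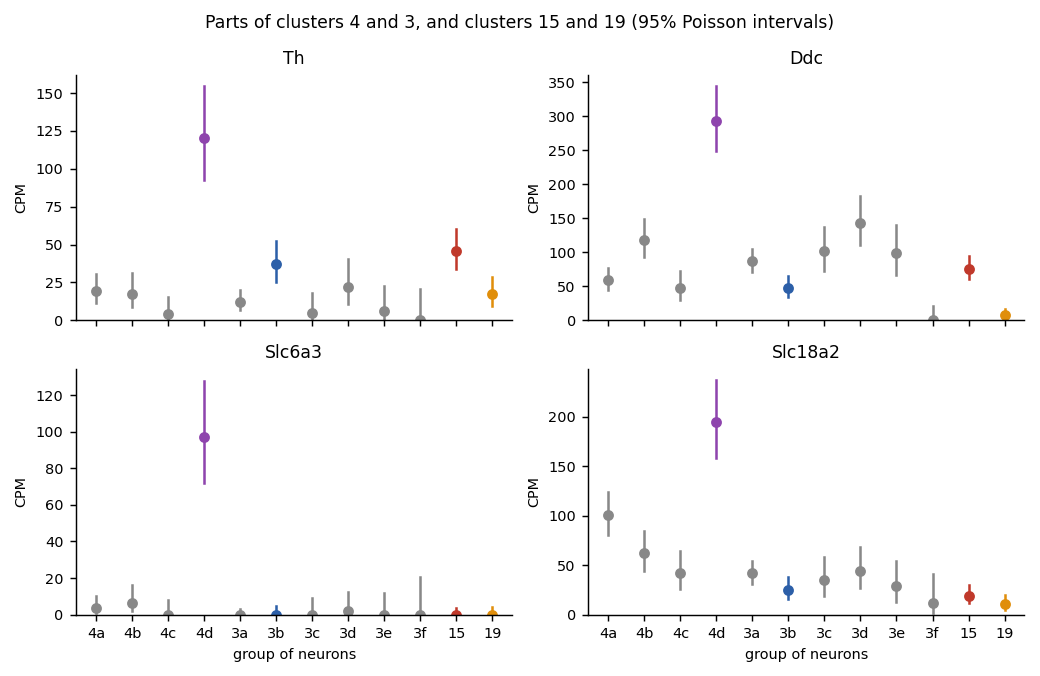
CPM with 95% Poisson intervals of Th, Ddc, Slc6a3 and Slc18a2 in the parts of clusters 4 and 3 and in clusters 15 and 19. Part 4d is highest in all 4 panels (121, 294, 97.2 and 194 CPM), while 15, 3b and 19 have Th at 45.8, 37.1 and 17.3 CPM and no Slc6a3 UMI.

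Single nuclei were then sorted by which of the 4 genes had a UMI. Of 269 neurons with Th, 5 (1.86%, 0.61 to 4.28) had the full set, 111 (41.3%) had 1 or 2 of the other 3 genes and 153 (56.9%, 50.7 to 62.9) had Th alone. Of the 153 Th-alone nuclei, 135 held a single Th UMI, which may be background. This class also took all 11 Th nuclei of the AGRP-like cluster 1. All 5 full-set nuclei were ARC and all lay in 4d. They held 3, 1, 2, 2 and 1 Th UMIs, 1, 3, 2, 2 and 1 Ddc UMIs, 2, 1, 1, 1 and 2 Slc6a3 UMIs and 1, 3, 1, 4 and 1 Slc18a2 UMIs. Their depths ran from 4020 to 7247 UMIs. Th alone was the state of 77 of 165 ARC Th nuclei (46.7%, 38.9 to 54.6) and of 76 of 104 PVH Th nuclei (73.1%, 63.5 to 81.3). Th with Slc6a3 was found in 15 ARC nuclei and in 0 of 3062 PVH neurons. This limits nuclei with a UMI of both (up to 0.0980% by the limit of 3 counts, 0.120% by the exact interval), not neurons that express both.

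The classes moved with depth. Nuclei under 4000 UMIs had Th in 1.86% and, of those with it, Th alone in 73.9%, against 5.44% and 51.7% from 6000 UMIs up. Median depth was 5784 UMIs for the full set, 5587 for the partial set, 5026 for Th alone and 4898 for neurons without Th. After each nucleus was thinned to 1000 UMIs, leaving out 1 shallower neuron, no full set remained among 56 Th nuclei. Th was then found in 9.68% of 4d nuclei, 4.94% of 3b nuclei and 4.35% of cluster 15 nuclei, against 44.1%, 15.4% and 21.7% before.

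The make-up of Th nuclei was next taken by group. In 4d, 41 of 93 nuclei had Th (44.1%, 33.8 to 54.8), and 5 of these were full, 33 partial and 3 Th alone. Their Th came with Ddc in 28, Slc18a2 in 22 and Slc6a3 in 15. In cluster 15, 29 of 45 Th nuclei had Th alone (64.4%, 48.8 to 78.1), 13 had Ddc, 6 had Slc18a2 and 0 had Slc6a3. In 3b, 20 of 25 had Th alone (95% interval 59.3% to 93.2%), and in cluster 19, 10 of 12 (83.3%, 51.6 to 97.9). Of Slc6a3 nuclei, 33 of 70 had Ddc (47.1%, 35.1 to 59.5), 31 had Slc18a2 (44.3%) and 15 had Th (21.4%, 12.5 to 32.9). Among neurons without Slc6a3 the shares were 15.5%, 11.04% and 3.77%, at median depths of 5271 UMIs with and 4909.5 UMIs without it. Outside 4d, where no Th nucleus had Slc6a3, Ddc was found in 25.0% of 228 Th nuclei (19.5 to 31.1) and in 14.8% of the rest.

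**Figure D4:**
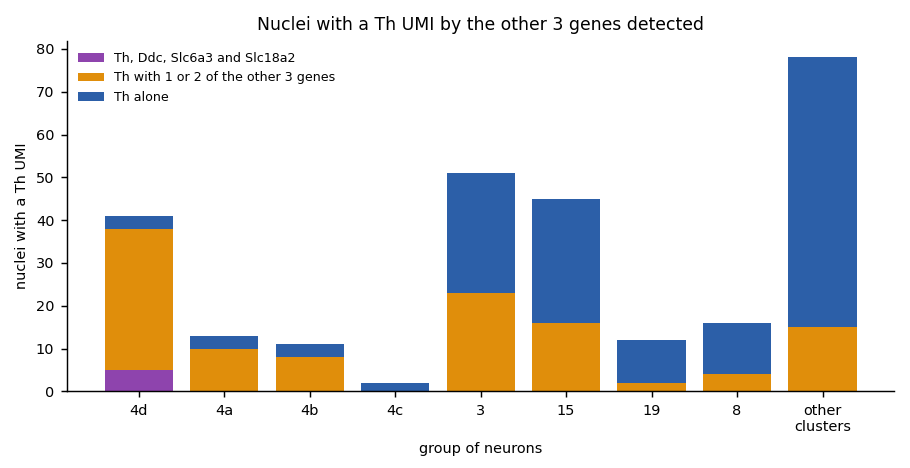
Number of nuclei with a Th UMI in each group of neurons, split into the full set, Th with 1 or 2 of the other 3 genes, and Th alone. All 5 full-set nuclei lie in 4d, where 3 of 41 nuclei have Th alone, against 29 of 45 in cluster 15.

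Genes of the lists chosen for this tissue were then read in the 3 Th-rich groups. Since such genes entered the clustering, these values describe the groups and are not evidence for them. Genes named here were taken from those past 2-fold, after their values were seen. Prlr, the prolactin receptor, was at 494 CPM (435 to 558) in 4d, 105 CPM in 3b and 19.2 CPM in cluster 15, against 88.4 CPM in neurons outside 4d. Ghr, the growth hormone receptor, went the other way, with 31.1 CPM in 4d, 136 CPM in 3b and 766 CPM (715 to 820) in cluster 15. Of 11 hormone receptor genes compared, 2 were higher and 3 lower in 4d, 3 and 3 in cluster 15, and 1 and 2 in 3b. Esr1, an estrogen receptor, was at 373 CPM in cluster 15, 122 CPM in 4d and 51.4 CPM in 3b.

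Among genes of fast transmission, the glutamate transporter gene was low in all 3 groups. Slc17a6 was at 15.6 CPM in 4d, 13.7 CPM in cluster 15 and 29.9 CPM in 3b, each under the 61.5 to 62.4 CPM of the other neurons. Gad2, an enzyme of GABA synthesis, was at 87.5 CPM in 4d, 200 CPM in cluster 15 and 256 CPM in 3b, and Gad1 at 111, 64.1 and 86.1 CPM. Chat, for acetylcholine, was at 110 CPM in cluster 15 and at 0 UMIs in 4d. Of 16 peptide genes compared, 0 were higher and 1 (Tac1) lower in 4d, whereas Gal, Ghrh and Penk were higher and Nts and Tac2 lower in cluster 15. In 3b, Gal was higher and Pdyn and Crh were lower. Gal was at 168 CPM in cluster 15, 161 CPM in 3b and 46.7 CPM in 4d.

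Among transcription factors of dopamine neurons, Dlx1, Dlx2, Dlx5 and Dlx6 were each at least 2-fold above the other neurons in all 3 groups, and Meis2 was at least 2-fold below, with 0 UMIs in 4d, 4 in cluster 15 and 1 in 3b. Dlx1 was at 38.9 CPM in 4d, 43.0 CPM in cluster 15 and 41.9 CPM in 3b. The interval of Dlx5 in 3b reached below the level of the other neurons (log2 1.01, -0.15 to 1.96). Lhx1 was at 83.6 CPM in 4d and at 0 UMIs in cluster 15. It was not particular to 4d, since it led part 4c at 13.9-fold and part 3f at 15.5-fold above the other neurons. Th had 2 UMIs in 4c and 0 in 3f. Isl1 was at 33.1 CPM in 4d and 209 CPM in cluster 15. Markers of midbrain dopamine neurons (Foxa1, Foxa2, Lmx1a, Lmx1b, En1 and Pitx3) had 0 UMIs in 4d, which allows up to 5.83 CPM, and summed to 2.47 CPM over all neurons, so no difference was detectable at this depth. Gch1, the first enzyme of tetrahydrobiopterin synthesis, had 5 UMIs in 4d (9.72 CPM, 3.16 to 22.7) and 7.59 CPM in the other neurons. It was at least 2-fold below the other neurons in cluster 15 and in 3b. Of 5 tetrahydrobiopterin genes compared, 0 were higher in each group, while Qdpr was lower in 4d and Spr in cluster 15. Oligodendrocyte markers summed to 119 CPM in 4d, with Mobp and Mog at 0, against 61.9 CPM over all neurons, and astrocyte markers to 13.6 against 37.6 CPM. Their part in the levels of 4d was not tested.

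Among the receptors, Drd2 had 1 leading cluster. It was at 58.3 CPM (44.9 to 74.5) in cluster 14, which was KNDy-like from Kiss1, Tac2, Pdyn, Tacr3 and Esr1, in 46 of 219 nuclei (21.0%, 15.8 to 27.0). That cluster held 64 of the 257 neuron UMIs (24.9%), 10.6-fold (7.84 to 14.1) above the other neurons. The POMC-like cluster 10 was next at 20.04 CPM (13.8 to 28.1) and cluster 17, with 184 of 190 nuclei PVH, followed at 12.1 CPM (6.62 to 20.3). The AGRP-like cluster was near the foot of the order at 0.946 CPM (0.258 to 2.42, 0.514% of nuclei), and the oxytocin cluster had 0 UMIs. Drd1 was highest in cluster 10 at 6.68 CPM (11 UMIs), but 12 other clusters had overlapping intervals and 9 had no UMI. Drd5, with 9 UMIs in all, was found in 5 clusters and gave no order.

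Receptor UMIs in nuclei with Th were few and gave no clear difference from neurons without it. Part 4d had 2 Drd2 UMIs (3.89 CPM, 0.471 to 14.0, against 7.17 CPM in the other neurons) and 0 of Drd1 and Drd5, which allows up to 5.83 CPM each. Cluster 15 had 3 Drd2 UMIs (2.75 CPM, 0.566 to 8.03, against 7.26 CPM), and 3b had 8 (9.57 CPM, 4.13 to 18.9). Drd3 was at 15.6 CPM (9.06 to 24.9, 17 UMIs) in cluster 15 and 2.80 CPM in the other neurons. The 5 full-set nuclei had 0 UMIs of Drd1, Drd2 and Drd5, which at their summed depth allows up to 101 CPM and so says little. The 153 Th-alone neurons had 3 Drd1 UMIs (3.48 CPM, 0.718 to 10.2), 2 Drd2 UMIs (2.32 CPM, 0.281 to 8.39) and 0 Drd5 UMIs. The 111 partial-set neurons had 7 Drd2 UMIs (10.1 CPM, 4.06 to 20.8) and 1 Drd1 UMI. Neurons without Th had Drd2 at 7.19 CPM (6.32 to 8.14) and Drd1 at 1.62 CPM (1.23 to 2.11). Of 217 Drd2 nuclei, 7 had Th (3.23%, 1.31 to 6.53), and of the other neurons 3.97% had Th (3.51 to 4.47).

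Full-set and Th-alone nuclei were last compared over all genes with at least 20 UMIs in both together. With 5 nuclei on 1 side, single UMIs set many values, and 12.4% of 7770 genes were at least 2-fold higher and 8.85% at least 2-fold lower in the full set. No member could be compared freely, since Th, Ddc, Slc6a3 and Slc18a2 defined the classes and the receptors had too few UMIs. Th, required on both sides, was at 303 against 200 CPM as a description. All 5 full-set nuclei lay in part 4d, whereas only 3 of the Th-alone nuclei did. The values below therefore also compare 4d with neurons mostly outside it. A difference between the classes within 4d was not tested. Rxfp2 was among the genes that led 4d, and Prlr was also high there. Prlr had 18 UMIs in the 5 full-set nuclei (605 CPM, 359 to 957) and 55 in Th-alone neurons (63.8 CPM, 48.1 to 83.1). Rxfp2, a relaxin-family receptor, had 16 against 6 UMIs (538 and 6.96 CPM), followed by Sntg2, Glis3 and Sox6 at 21.4-fold, 18.9-fold and 17.8-fold. Oxt was at 202 CPM (74.0 to 439) in full-set and 779 CPM (721 to 840) in Th-alone neurons, and Avp at 135 and 324 CPM. Of 10 peptide genes compared, 1 was at least 2-fold higher and 3 lower, and of 8 hormone receptor genes 2 were higher and 1 lower. Outside the lists, the lowest genes with a UMI were Nkain2, Cntn4 and Cntnap5a, each with 1 UMI in the full set.

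Genes whose level followed each member most closely over the 20 clusters were found by Pearson correlation of log2(CPM + 10). The points share 1 library and differ in depth, so r is descriptive. The best match of Ddc was 1700042O10Rik (r = 0.96), the gene that overlaps it on the other strand, and then H2-Ke6 and Spred3 (both 0.80). For Slc6a3 these were Cgnl1 (0.92), Gxylt2 and Has2 (both 0.91), of which Cgnl1 and Has2 were also among the genes that led cluster 4. The parts of cluster 4 are pooled in this r. Has2 led part 4d, whereas Cgnl1 led part 4a, which had 3 Slc6a3 UMIs. Slc18a2 came with Kcnj16 (0.81) and with Slc6a3 itself (0.79). Th had no close partner, with Fer at 0.75, Mcub at 0.74 and Coch at 0.72, and r of 0.42 with Ddc, 0.37 with Slc6a3 and 0.37 with Slc18a2. Drd2 came with Slco2a1 (0.88) and Wnk3 (0.86), and had r of -0.08 with Th.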

How the data were processed

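Single-nucleus RNA was counted in 1 library, and its hashtags in another. The authors aligned reads to mm10 and deposited raw UMI counts per gene and nucleus. The labels name Cell Ranger 5.0 and Seurat 4, and the matrix header names cellranger 4.0.0. How many mice were used is not given in the labels. Nuclei with over 800 and under 5000 genes, at most 1% mitochondrial counts and at most 12000 counts were kept, with genes found in at least 3 nuclei. Hashtags were called with HTODemux (positive quantile 0.8), and 944 doublets were left out. No other doublet caller was run. Columns of samples left unused numbered 0.

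Both hashtags were clustered together (Seurat 5.3.0, R 4.3.3, leidenbase 0.1.32) on 1995 variable genes, which exclude the 5 members among the top 2000, with 30 components, 20 neighbours and Leiden resolution 0.55. A cluster was named where its first marker and at least 3 in all were 1.5-fold up with 3 UMIs each. UMIs were summed per group with Python 3.11.15, numpy 2.4.6, scipy 1.17.1 and pandas 2.3.3, and drawn with matplotlib 3.10.9. With 1 library there was no test. Intervals are exact at 95%, and a count of 0 was given the limit of 3 counts. Genes were compared from 50 UMIs in both groups together between hashtags, 100 for parts of clusters and 20 for sets of Th nuclei. A gene was called at 2-fold. The ratio and its interval were tested on simulated Poisson counts. These hold no variation between nuclei or mice, so only counting error was covered.

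Named genes were the members, the genes of each list with the largest full-set over Th-alone ratio, the 8 largest each way outside the lists, the 3 best correlated with each member and the 3 that led each cluster. Other list genes were named after their values were seen. The list of transcription factors is not reported here in full. Members and lists were chosen with earlier results of these data known, and the parts of clusters were added after levels were seen. Alternatives changed the filters, hashtag quantile, thinning, clustering, hashtags clustered and the definition of the full set.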

Additional observations from a re-analysis of the deposited data

Results flagged for a closer look

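Nuclei that the comparisons left out also held the dopamine genes. Among the 944 hashtag doublets, 42 had Th and 2 of these had the full set, with 14 partial and 26 Th alone. A doublet can hold RNA of more than 1 nucleus, so a full set there need not come from 1 neuron. Slc6a3 in doublets was at 2.86 CPM (1.60 to 4.72, 15 UMIs). In the 2385 nuclei without an assigned hashtag, Slc6a3 was at 1.198 CPM (0.598 to 2.14, 11 UMIs), and 0 of 56 Th nuclei had the full set. These signals stand above the limit that a count of 0 allows and belong to no group.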

How the results depend on the processing

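No paired analysis was possible because the data hold 1 library and no replicates. Under the settings listed at the outset, 116 values stayed within counting error, or within 1.5 times for counts, and 23 moved. Under those added after the levels were seen, 13 stayed and 11 moved. No called value changed sign. Ratios not called did: Th once, Drd1 with no upper limits and at 0.5% mitochondrial counts (0.10 and 0.07), and Drd5 at quantile 0.99 (1.38) and without 3 clusters. The cause was not tested.

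Thinned to 1000 UMIs, the log2 ratio (PVH over ARC) was -0.89 for Th and -0.95 for Drd2. Without the 3 clusters of highest Th it was 0.53 for Th, -0.047 for Ddc, -1.74 for Slc6a3, -0.068 for Slc18a2, -0.80 for Drd2 and 1.79 for Drd5. For Slc18a2 it was -0.71 at quantile 0.99. Full-set nuclei numbered 5, but 1 at quantile 0.99, 3 with Th from 2 UMIs, 0 thinned, 10 without asking for Ddc, 15 as Th with Slc6a3 and 38 as Th with at least 2 of the other 3. Their share of Th nuclei was 7.32%, 0%, 5.58% and 14.1% for Th from 2 UMIs, thinned, Th with Slc6a3 and the last definition. Th alone numbered 51 at quantile 0.99, 18 with Th from 2 UMIs and 43 thinned. Drd2 in Th-alone nuclei was 0 CPM at quantile 0.99 and with Th from 2 UMIs, and full-set nuclei under the last definition had 1 Drd2 UMI. ARC nuclei alone gave 13 neuron clusters. The top cluster by level held 20.6% of Th UMIs at resolutions 0.8 and 1.2, 20.3% with 50 components, 34.7% in ARC alone and 30.7% in PVH alone; these were not the GHRH-like cluster 15, and the first 3 shared 90, 91 and 90 nuclei with 4d. For Slc6a3 it held 30% in PVH alone, and for Drd2 41.4% in ARC alone and 11.4% in PVH alone.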
